A study of Homo sapiens with 4 samples.

Results

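Oxidative phosphorylation in MDA-MB-231 cells was followed through 105 protein-coding genes of the 26336 in the deposited table: 92 carried by the nuclear chromosomes and 13 by the mitochondrial genome. They were taken by name, as the subunit and assembly genes whose symbols begin with NDUFA, NDUFB, NDUFC, NDUFS, NDUFV, UQCR, COX4 to COX8, ATP5, MT-ND, MT-CO, MT-CYB or MT-ATP, together with the 4 succinate dehydrogenase genes. A mean value of at least 1 over the 4 libraries was required. Of 109 protein-coding genes with such a name, 4 stayed below that mean (COX4I2, COX6B2, COX8C and the readthrough gene ATP5MF-PTCD1) and are not counted among the members. The cells are MDA-MB-231, a mesenchymal human line established from breast cancer without hormone receptors, here of wild-type genotype in all libraries. The cells were exposed for 24 h to W23-1006, an ALKBH5 inhibitor by the series title, or to the vehicle DMSO; ALKBH5 is an enzyme that removes the methyl group from N6-methyladenosine in RNA. There were 2 W23-1006 libraries and 2 DMSO libraries, made from RNA bound to poly-T beads. The labels give no concentration of the compound, and nothing in them tells whether replicate libraries are separate cultures. All p-values below are thus set against a spread between libraries that may be purely technical.

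Oxidative phosphorylation is the last stage of respiration in the inner mitochondrial membrane. Complex I (NADH dehydrogenase) and complex II (succinate dehydrogenase) pass electrons to ubiquinone, complex III (the cytochrome bc1 complex) passes them to cytochrome c, and complex IV (cytochrome c oxidase) passes them to oxygen. Complexes I, III and IV pump protons, and complex V, the ATP synthase, uses the proton gradient to make ATP. Complexes I, III, IV and V are built from proteins of both genomes, whereas complex II is encoded by nuclear genes alone. The mitochondrial genome is transcribed as long precursors from both of its strands, which are cut into single messages mostly at the tRNA genes that lie between them. MT-ND4L with MT-ND4, and MT-ATP8 with MT-ATP6, stay joined as messages with 2 overlapping reading frames, and MT-ND6, the one protein gene of the other strand, has a message that for the most part lacks a poly-A tail.

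The 2 shortest mitochondrial genes are shown because one of them was the member past the threshold and because each shares bases with the gene downstream of it. MT-ND4L occupies chrMT:10470-10766 on the plus strand (GRCh38), and MT-ATP8 occupies chrMT:8366-8572 on the plus strand. The sequences were read from the GENCODE release 29 transcripts, 5′ to 3′. Capitals mark the bases that belong also to MT-ND4 (10760-12137) and to MT-ATP6 (8527-9207).

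MT-ND4L: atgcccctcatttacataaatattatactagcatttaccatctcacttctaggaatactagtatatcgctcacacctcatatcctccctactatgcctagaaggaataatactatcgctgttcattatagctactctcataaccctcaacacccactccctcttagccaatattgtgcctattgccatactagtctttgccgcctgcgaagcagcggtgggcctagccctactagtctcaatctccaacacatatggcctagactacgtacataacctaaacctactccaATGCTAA

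MT-ATP8: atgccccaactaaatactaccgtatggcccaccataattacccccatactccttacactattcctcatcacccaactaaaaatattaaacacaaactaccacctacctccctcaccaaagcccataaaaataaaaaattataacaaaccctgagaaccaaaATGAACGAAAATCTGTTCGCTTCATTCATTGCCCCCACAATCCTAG

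The shared part was 7 bases of the 297 of MT-ND4L and 46 bases of the 207 of MT-ATP8. MT-ND4L therefore shares few bases with MT-ND4, and MT-ATP8 more with MT-ATP6. How reads that span both genes of a joined message were counted was not tested.

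Of the nuclear genes, NDUFS1 and NDUFS8 are shown, since they were the complex I genes with the smallest unadjusted p on the higher and on the lower side and since fold changes of the members went along with base composition, as described further on. Both encode iron-sulfur subunits of the core of complex I. NDUFS1 lies at chr2:206114817-206159603 on the minus strand and NDUFS8 at chr11:68030617-68036644 on the plus strand (GRCh38). The first 120 coding bases of the longest protein-coding transcript are given, with G and C in capitals.

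NDUFS1: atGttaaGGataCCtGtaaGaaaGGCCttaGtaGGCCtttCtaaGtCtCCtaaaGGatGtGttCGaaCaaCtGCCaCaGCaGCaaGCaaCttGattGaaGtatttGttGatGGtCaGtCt

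NDUFS8: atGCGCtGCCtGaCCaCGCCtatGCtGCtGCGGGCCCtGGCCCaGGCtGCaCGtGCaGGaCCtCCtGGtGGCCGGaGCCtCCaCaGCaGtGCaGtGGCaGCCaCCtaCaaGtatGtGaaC

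G and C made up 41.7% of the NDUFS1 stretch and 65.8% of the NDUFS8 stretch. For NDUFS8 the protein-coding transcript shown has 791 bases and 63.3% GC. The GC content used further on is that of the longest transcript of any type, which for NDUFS8 has 3072 bases and 57.9% GC.

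The values are read counts scaled per library by the authors, and with the smallest value above 0 taken as 1 read the libraries held 16139766 and 16497283 reads for W23-1006 and 16042345 and 15161460 reads for DMSO. Markers of the line were abundant in every library: VIM had 21453 to 22495 with W23-1006 and 21063 to 21187 with DMSO, and CD44, EGFR, AXL and KRT18 had at least 3530 in each library. ESR1, the estrogen receptor, had 1.99 to 9.64, EPCAM had 45.4 to 85.8 and ERBB2 had 871 to 1052. Of the endothelial markers, CDH5 was at 0 in 3 libraries and at 4.82 in W23-1006 replicate 2, while PECAM1 had 73.5 and 104 with W23-1006, against 74.7 and 78.4 with DMSO. Of the fibroblast markers, COL3A1 stayed at or below 6.19, while COL1A1 had 92.4 and 81.0 with W23-1006, against 96.7 and 118 with DMSO. The leukocyte genes PTPRC and CD3E were not among the genes of the table. In a bulk culture fewer cells and less RNA per cell cannot be told apart, and a poly-A selected library does not tell a change in the amount of a mitochondrial message from a change in its tail.

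At 24 h the oxidative phosphorylation genes stood close to their level in DMSO. One of the 105 members, MT-ND4L, passed the threshold (limma on log2(value + 1), Benjamini-Hochberg adjusted p under 0.05 over 22486 genes), and it was higher with W23-1006. That is 0.952% of the members, beside 2.15% of all genes tested. Among all genes, 0.694% were called higher and 1.46% lower. At an unadjusted p under 0.05 there were 23 members, or 21.9%, beside 16.7% of all genes. The fold change was positive in 50 members and negative in 55, with a median log2 fold change of -0.018 beside -0.011 over all genes tested. The 95% interval of the fold change lay within 1.5-fold in both directions for 91 of the 105 members. Both W23-1006 libraries were above both DMSO libraries in 20 members (19.05%, beside 22.1% of all genes), and below both in 30 (28.6%, beside 25.0% of all genes). In the table the authors deposited, 1 member had an adjusted p under 0.05, a share of 0.952% beside 2.42% of the table, and it was MT-ND2 (0.043), not MT-ND4L (0.237).

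With the deposited gene lengths, all mitochondrial genes but MT-ATP8 had a higher mean level per length than any nuclear member. Levels per length are given as RPKM (reads scaled to gene length and library total) averaged over the 4 libraries. The deposited length equals the transcript for MT-CO1 (1542 bases) but exceeds the longest transcript for nuclear genes such as NDUFV1 (5057 against 2528). Such a length lowers the level of a nuclear gene, and the order with transcript lengths was not tested. MT-CO1, the catalytic subunit of complex IV, had 8340 ± 517 (SD, n = 4 libraries). ATP5F1B, the catalytic beta subunit of complex V and the highest of the nuclear members, had 398, which puts MT-CO1 20.97-fold above it. After MT-CO1 came MT-ND4 (5935), MT-CO3 (5811), MT-ND4L (5527) and MT-ATP6 (5468), and over the libraries each of these 4 overlapped its neighbour among them. MT-CO2 followed at 4596, MT-ND2 at 2965, MT-CYB at 2604 and MT-ND3 at 2274, the last of which overlapped MT-CYB. The lowest were MT-ND1 (1692), MT-ND5 (772), MT-ND6 (439), which was close to ATP5F1B, and MT-ATP8 (121), which was below ATP5F1B and NDUFS5. The joined pairs differed in how well their levels matched: MT-ND4 was 1.07-fold above MT-ND4L, and MT-ATP6 was 45.1-fold above MT-ATP8. The labels state that cDNA fragments of 370 to 420 bp were preferred, which is longer than MT-ATP8 (207 bases), MT-ND4L (297) and MT-ND3 (346); the part of fragment length in these levels was not tested.

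**Figure D1:**
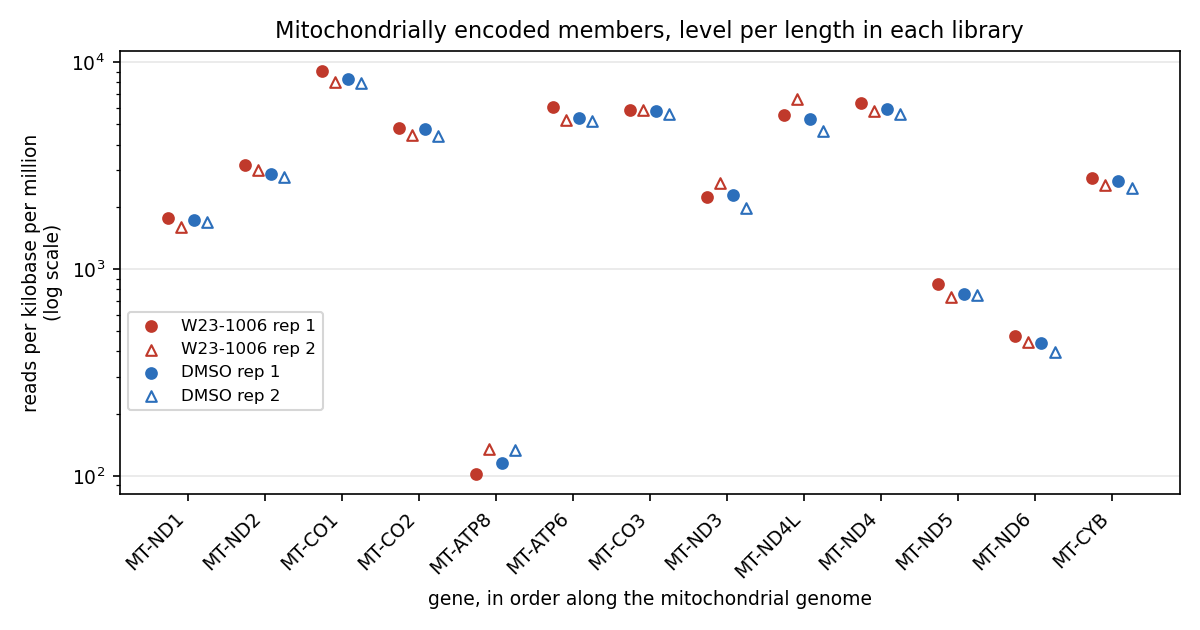
Level per length (RPKM, reads scaled to gene length and library total, log scale) of the 13 mitochondrially encoded members in each library, in order along the mitochondrial genome; red marks are W23-1006, blue marks DMSO, filled circles replicate 1 and open triangles replicate 2. The genes span from 121 (MT-ATP8) to 8340 (MT-CO1) on average, and the 4 libraries of a gene lie close together beside that range.

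MT-ND4L encodes a small membrane subunit of complex I. Its values were 26455 and 31313 with W23-1006, against 25177 and 21492 with DMSO. Both W23-1006 libraries were above both DMSO libraries, but the gap between the groups was smaller than the difference between the libraries within either group. The log2 fold change was 0.31 with a standard error of 0.075, and the adjusted p of 0.049 (limma) lay just under the threshold. The log2 fold change was 0.43 with W23-1006 replicate 1 left out and 0.19 with W23-1006 replicate 2 left out. It was 0.42 without DMSO replicate 1 and 0.19 without DMSO replicate 2. These fits leave 1 library in a group and called no gene at all, so the lost call is not particular to MT-ND4L. The call was also lost after a GC content correction (adjusted p = 0.381, limma, log2 fold change 0.23). In it, a smooth curve of each library's log2 deviations on transcript GC content was subtracted. With a gene length correction after that of GC content, an alternative added after seeing the data, the adjusted p was 0.046 and the log2 fold change 0.26.

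The other 6 mitochondrial genes of complex I did not pass. MT-ND2, a proton-pumping subunit, had 53461 and 49729 with W23-1006, against 48084 and 45253 with DMSO. These groups did not overlap, and the log2 fold change was 0.14 (SE 0.049, limma adjusted p = 0.136). MT-ND6 had 4010 and 3706 with W23-1006, against 3671 and 3271 with DMSO. Its groups also did not overlap, by a small margin, and the log2 fold change was 0.15 (adjusted p = 0.252, limma). MT-ND3 had 12402 and 14368 with W23-1006, against 12635 and 10641 with DMSO. Here DMSO replicate 1 lay above W23-1006 replicate 1, and the log2 fold change of 0.20 had an adjusted p of 0.178 (limma). MT-ND1, the subunit next to the ubiquinone site, had 27071 and 24199 with W23-1006, against 26372 and 25225 with DMSO. Its DMSO libraries lay inside the range of the W23-1006 libraries, and its log2 fold change was -0.011. MT-ND4 and MT-ND5, which encode the large proton-pumping subunits, had log2 fold changes of 0.077 and 0.076, with overlapping groups. The median log2 fold change of the 7 genes was 0.14, or 0.061 after the GC content correction.

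The 6 mitochondrial genes of the other complexes had log2 fold changes of -0.069 to 0.11. MT-CYB, the cytochrome b of complex III, had 50469 and 46031 with W23-1006, against 48592 and 43884 with DMSO. Its libraries alternated between the groups, and its log2 fold change was 0.062. MT-CO1 had 224474 and 197470 with W23-1006, against 204769 and 191206 with DMSO. MT-CO2, which holds the first copper centre reached by electrons, had 52629 and 48205 with W23-1006, against 52103 and 46972 with DMSO. MT-CO3, the remaining mitochondrial subunit of complex IV, had 74177 and 73461 with W23-1006, against 73093 and 68942 with DMSO. In these 3 genes the log2 fold changes were 0.090, 0.026 and 0.056, and the groups were separate in MT-CO3 alone. MT-ATP6, the subunit that forms the proton path of complex V, had 66186 and 56971 with W23-1006, against 58261 and 55422 with DMSO. MT-ATP8, a small subunit of the same complex, had 339 and 443 with W23-1006, against 383 and 431 with DMSO. The groups overlapped in both, with log2 fold changes of 0.11 and -0.069. None of these 6 genes had an unadjusted p under 0.05, whereas MT-ND4L, MT-ND2, MT-ND3 and MT-ND6 did. These 4 genes had GC contents of 40.2% to 43.1%, MT-ATP8 had 39.6%, and the other 8 had 44.2% to 47.7%.

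Replicates of a group differed in the mitochondrial genes. Between the W23-1006 libraries, replicate 2 was above replicate 1 in all 3 genes shorter than the stated fragments, by log2 0.21 (MT-ND3), 0.24 (MT-ND4L) and 0.39 (MT-ATP8). It was below replicate 1 in all 10 longer genes, by log2 differences of -0.23 to -0.014. Between the DMSO libraries, replicate 2 was below replicate 1 in all 10 longer genes too, but above it in 1 of the 3 short ones, MT-ATP8 (0.17). MT-ND4L and MT-ND3 differed there by -0.23 and -0.25. In MT-ND4L and MT-ND3, the 2 mitochondrial genes with the largest positive fold changes, replicate 2 was thus above replicate 1 with W23-1006 and below it with DMSO, and the part of this in their fold changes was not tested.

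**Figure D2:**
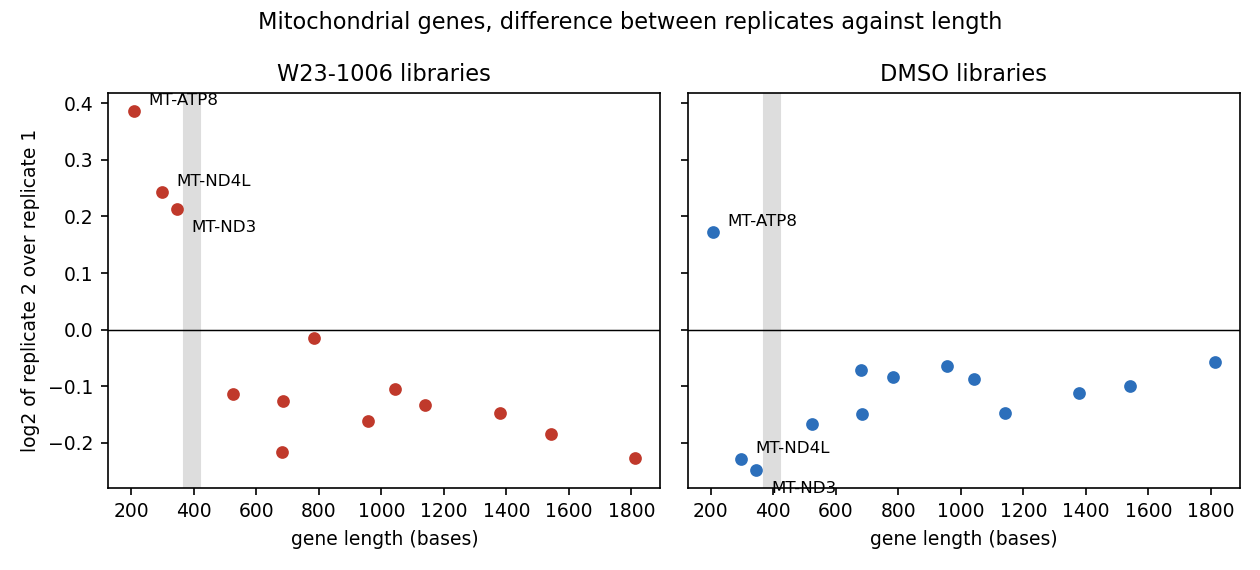
Log2 ratio of replicate 2 over replicate 1 for each of the 13 mitochondrial genes against gene length in bases, for W23-1006 libraries (left) and DMSO libraries (right); the grey band marks fragments of 370 to 420 bp. The 3 genes left of the band are above 0 with W23-1006, while with DMSO only MT-ATP8 is, and all 10 longer genes are below 0 in both groups.

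Summed over the 13 genes, mitochondrial messages took 4.72% and 4.36% of all values in the W23-1006 libraries, against 4.42% and 4.19% in the DMSO libraries. The group means were 4.54% ± 0.253 with W23-1006 and 4.30% ± 0.162 with DMSO (SD, n = 2 each), and the groups overlapped. The 92 nuclear members took 0.623% and 0.662% with W23-1006, against 0.644% and 0.664% with DMSO. The ratio of the mitochondrial to the nuclear sum was 7.57 and 6.59 with W23-1006, against 6.87 and 6.31 with DMSO. W23-1006 replicate 1 stood highest in the mitochondrial share and lowest in the nuclear one.

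The 2 genomes had medians on opposite sides of 0. None of the 92 nuclear members passed (limma), and 19 had an unadjusted p under 0.05, beside 16.7% of all genes. A variant that weights values by precision, limma-voom, called 2, NDUFS8 and ATP5F1D, both lower (2.17% of the nuclear members, beside 5.3% of all genes). The median log2 fold change was 0.077 over the 13 mitochondrial members, with 11 positive and 2 negative, and -0.067 over the 92 nuclear members, with 39 positive and 53 negative. The median over all genes was -0.011. The 13 genes share their precursor transcripts, so they do not stand for 13 separate observations. The gap depended on the libraries: without W23-1006 replicate 1 the mitochondrial median was 0.004 and the nuclear one -0.012, while without W23-1006 replicate 2 they were 0.15 and -0.11. Without DMSO replicate 1 they were 0.14 and -0.079, and without DMSO replicate 2 they were 0.040 and -0.015. After the GC content correction the medians were 0.031 and -0.017.

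**Figure D3:**
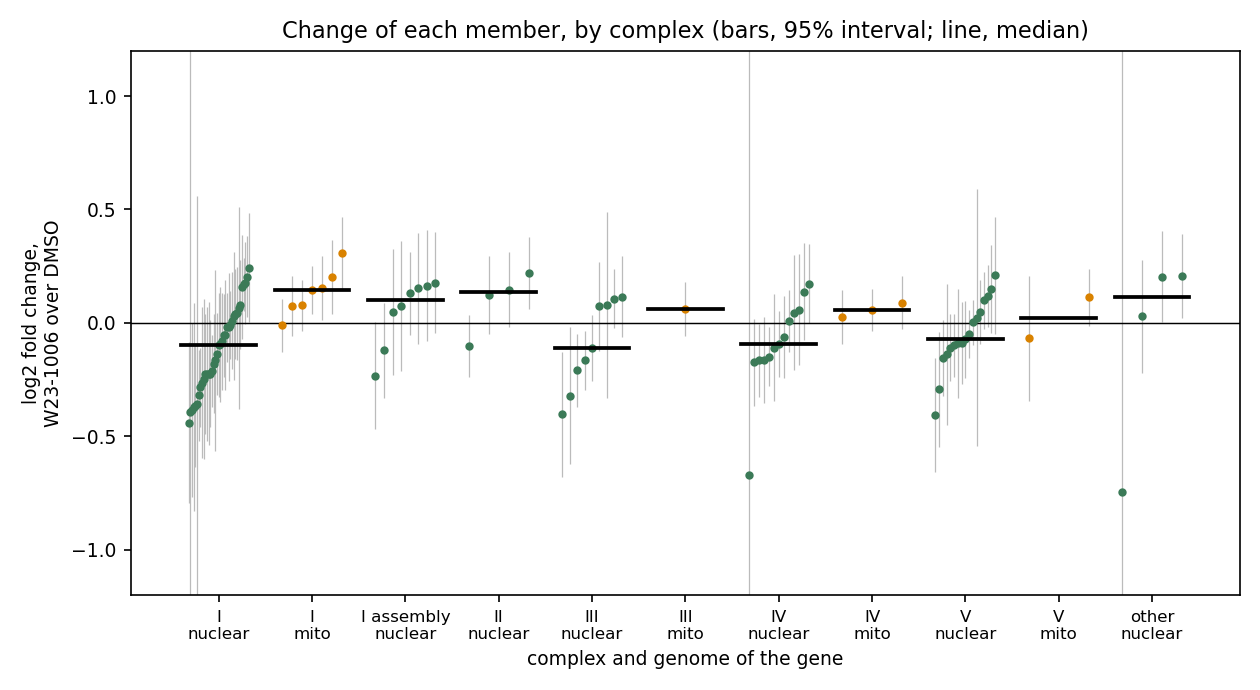
Log2 fold change of W23-1006 over DMSO for each member, by complex and genome (orange, mitochondrial; green, nuclear), with 95% intervals as grey bars and group medians as black lines; 4 intervals of genes with few reads run past the axis at 1.2. The medians of complexes I, III, IV and V are below 0 for nuclear genes and above 0 for mitochondrial ones, and most intervals include 0.

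Of the 37 nuclear subunit genes of complex I, 11 had a positive and 26 a negative log2 fold change, with a median of -0.096. None passed in the limma fit with a trend, and limma-voom called NDUFS8 alone. Of the 37, 8 had an unadjusted p under 0.05, beside 16.7% of all genes. The 7 nuclear core subunits, which carry the redox centres, had a median of -0.21 and the 30 supernumerary ones, which surround them, -0.095. Their GC contents had medians of 55.7% and 47.9%, and after the GC content correction the medians of the log2 fold change were -0.009 and -0.064. NDUFS8 had 1035 and 916 with W23-1006, against 1227 and 1146 with DMSO. Its groups did not overlap, and its log2 fold change of -0.28 had an adjusted p of 0.083 (limma). NDUFS1, the largest subunit, had 3985 and 4028 with W23-1006, against 3563 and 3561 with DMSO. The libraries of each group lay very close together, and the log2 fold change was 0.17 (adjusted p = 0.118, limma). NDUFV1, the subunit that binds NADH, had 1205 and 1259 with W23-1006, against 1359 and 1503 with DMSO, and a log2 fold change of -0.21 (adjusted p = 0.149, limma).

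Among the supernumerary subunits NDUFB1 had the lowest log2 fold change, -0.44, and NDUFS4, a subunit often mutated in Leigh syndrome, the highest, 0.24. NDUFB1 had 148 and 210 with W23-1006, against 227 and 253 with DMSO, which left the groups just apart (adjusted p = 0.183, limma). NDUFS4 had 435 and 445 with W23-1006, against 409 and 337 with DMSO, again without overlap (adjusted p = 0.295, limma). NDUFB7 had 494 and 464 with W23-1006, against 581 and 614 with DMSO. Its groups were well apart, and its log2 fold change of -0.32 had an adjusted p of 0.089 (limma), but with a GC content of 65.0%, the highest of the members, it had -0.009 after the GC content correction. NDUFS5, the complex I gene with the highest level per length among nuclear genes (162 RPKM), had 1367 and 1453 with W23-1006, against 1424 and 1414 with DMSO. The 8 NDUFAF assembly factors, which build complex I and are not part of it, had a median of 0.10, with 6 positive, and neither limma's adjusted nor its unadjusted p was under 0.05 for any of them. Within them NDUFAF2 had both the highest level (24.4 RPKM) and the highest log2 fold change (0.18), and NDUFAF8 the lowest (-0.23, or 0.032 after the GC content correction).

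The 4 genes of complex II had a median of 0.13. SDHA, the flavoprotein that oxidises succinate, had 1995 and 2135 with W23-1006, against 2189 and 2236 with DMSO. It was the one gene of the complex with both W23-1006 libraries below both DMSO libraries, with a log2 fold change of -0.10 (adjusted p = 0.472, limma). SDHB, the iron-sulfur subunit, had 1252 and 1368 with W23-1006, against 1238 and 1131 with DMSO. SDHC, a membrane anchor, had 1348 and 1574 with W23-1006, against 1379 and 1297 with DMSO. SDHD, the other anchor, had 1277 and 1241 with W23-1006, against 1117 and 1046 with DMSO. The groups of SDHB and SDHD did not overlap and those of SDHC did, with log2 fold changes of 0.15, 0.22 and 0.12 in SDHB, SDHD and SDHC. SDHD had the smallest p of the complex (adjusted p = 0.133, limma).

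Complex III had 9 nuclear genes, with 4 positive and 5 negative fold changes and a median of -0.11. Both W23-1006 libraries were below both DMSO libraries in 5 of the 9 (55.6%, beside 25.0% of all genes), which are the 5 negative genes, and above both in 1. UQCR10, a small supernumerary subunit, had 303 and 410 with W23-1006, against 479 and 454 with DMSO. Its log2 fold change was -0.40 (SE 0.13, adjusted p = 0.117, limma) and remained -0.42 after the GC content correction. The others were UQCR11 (-0.32), UQCRQ (-0.21), the core protein UQCRC1 (-0.16) and the Rieske iron-sulfur protein UQCRFS1 (-0.11). UQCRH, the hinge protein and the highest of the complex at 104 RPKM, had 2118 and 2684 with W23-1006, against 2149 and 2393 with DMSO. Its W23-1006 libraries lay on either side of both DMSO libraries. UQCRB, which contributes to the ubiquinone site, had the highest log2 fold change, 0.12, with overlapping groups.

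Complex IV had 13 nuclear genes with a median of -0.093, of which 5 were positive and 8 negative. COX4I1, the regulatory subunit that binds ATP, had 2234 and 2207 with W23-1006, against 2488 and 2434 with DMSO. The groups did not overlap, and the log2 fold change of -0.15 had an adjusted p of 0.223 (limma). COX7A2 had 922 and 962 with W23-1006, against 1062 and 1051 with DMSO, and a log2 fold change of -0.17 (adjusted p = 0.285, limma). COX8A, the highest nuclear gene of the complex (112 RPKM), had 830 and 866 with W23-1006, against 1032 and 874 with DMSO. Its W23-1006 replicate 2 and DMSO replicate 2 nearly touched, and its log2 fold change was -0.16, or 0.009 after the GC content correction. COX7C had the highest log2 fold change, 0.17, from 1743 and 2072 with W23-1006, against 1616 and 1757 with DMSO, which overlap. NDUFA4, named as a complex I gene but a subunit of complex IV, had 775 and 888 with W23-1006, against 986 and 889 with DMSO, with W23-1006 replicate 2 and DMSO replicate 2 at nearly the same value.

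The isoform pairs of complex IV differed little in their shares between the groups. COX7B2, known mainly from testis in normal tissue, had 425 and 532 with W23-1006, against 475 and 440 with DMSO. COX7B had 799 and 1008 with W23-1006, against 837 and 796 with DMSO. Per length, COX7B2 made up 66.6% and 66.4% of the pair with W23-1006, against 68.0% and 67.4% with DMSO. These shares rest on the deposited gene lengths. Before scaling to length COX7B was above COX7B2 in every library, so which of the pair is larger depends on the lengths used. COX7A1, the form of heart and skeletal muscle, made up at most 1.30% of its pair with COX7A2 in any library, at values of 0.99 and 3.86 with W23-1006, against 1.99 and 7.22 with DMSO. With so few reads its log2 fold change of -0.67 had a standard error of 0.88. COX6A1 and COX6B1 had log2 fold changes of -0.11 and -0.093, while COX4I2, COX6B2 and COX8C, the lung and testis forms of other subunits, had at most 2.98 in any library. NDUFA4L2, the hypoxia-induced relative of NDUFA4, had 0 and 4.82 with W23-1006, against 2.99 and 3.10 with DMSO. In complex III, the near copy UQCRHL had at most 3.64% of its pair with UQCRH.

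Complex V had 17 nuclear genes, 7 positive and 10 negative, with a median of -0.072. ATP5F1B had 14863 and 14511 with W23-1006, against 14687 and 14650 with DMSO. Its DMSO libraries lay between the W23-1006 libraries, and its 95% interval ran from -0.097 to 0.10 on the log2 scale. ATP5F1D, the delta subunit of the central stalk, had 713 and 521 with W23-1006, against 793 and 822 with DMSO. Both W23-1006 libraries were lower, replicate 2 by far the more, and the log2 fold change of -0.41 (adjusted p = 0.086, limma) ranged from -0.63 to -0.18 when single libraries were left out. After the GC content correction it was -0.12. ATP5MG, a small membrane subunit, had the highest log2 fold change, 0.21, with 284 and 299 with W23-1006, against 259 and 245 with DMSO. COX7A2L, which helps to join complexes III and IV into supercomplexes and is counted with neither, had 1027 and 1196 with W23-1006, against 922 and 1000 with DMSO, without overlap (log2 fold change 0.21, adjusted p = 0.237, limma). ATP5IF1, the inhibitor of the ATP synthase, had a log2 fold change of 0.028. The 3 genes that encode the same mature c subunit of the rotor, ATP5MC1, ATP5MC2 and ATP5MC3, had log2 fold changes of -0.15, 0.047 and -0.10. Per length ATP5MC2 made up 39.3% and 37.1% of the 3 with W23-1006, against 35.5% and 35.3% with DMSO.

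Fold changes of the nuclear members went along with the GC content of their transcripts. Spearman's rho between the log2 fold change and the GC content of the longest transcript was -0.57 across the 92 genes, which share the 4 libraries and are not replicates. The 31 members with the lowest GC content (up to 44.1%) had a median log2 fold change of 0.10, with 22 positive. The 30 in the middle had -0.033, with 13 positive, and the 31 with the highest GC content (from 51.3%) had -0.21, with 4 positive. The 11 nuclear members on chromosome 19, with a median GC content of 60.8%, were all negative, with a median of -0.37. After the GC content correction these groups, low to high, had medians of -0.026, -0.041 and -0.009, rho was 0.020, and the chromosome 19 members had -0.13. After the same correction 0.0934% of all genes were called, and no member was. The correction subtracts each library's trend on GC content, so the flatter slope follows largely from how it is made. It would also take away an effect of the compound that followed GC content.

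**Figure D4:**
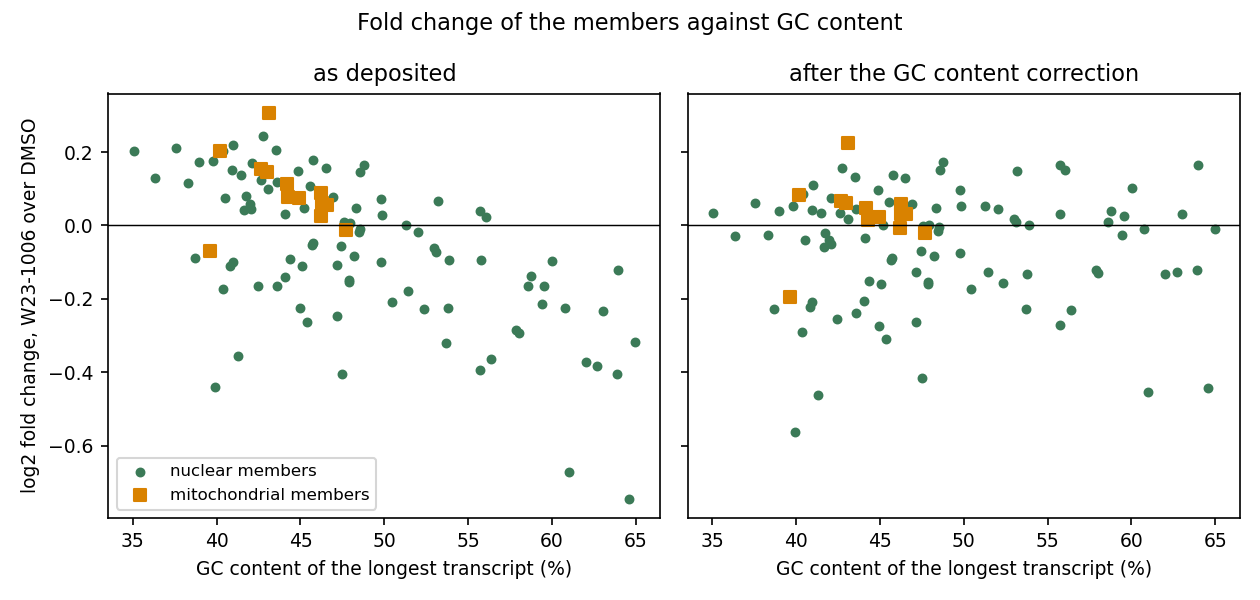
Log2 fold change of W23-1006 over DMSO for the nuclear (green) and mitochondrial (orange) members against the GC content of the longest transcript, as deposited (left) and after the GC content correction (right). On the left the nuclear members run from a median of 0.10 in the 31 genes of lowest GC to -0.21 in the 31 of highest GC. On the right, where the correction has subtracted each library's trend on GC content, rho is 0.020.

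The trend was seen in the single libraries as well. Taken as medians of the log2 deviation from each gene's mean, the 31 low-GC members had -0.050 and 0.12 in W23-1006 replicates 1 and 2, against -0.052 in both DMSO libraries. The 31 high-GC members had -0.11 and -0.060 with W23-1006, against 0.035 and 0.093 with DMSO. In the low-GC members W23-1006 replicate 1 was therefore level with DMSO and only replicate 2 stood above, whereas in the high-GC members both W23-1006 libraries stood below both DMSO libraries. Over all 92 nuclear members the medians were -0.072 and 0.029 with W23-1006, against -0.001 and 0.040 with DMSO, so that replicate 1 alone was below the DMSO libraries by more than their spread.

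**Figure D5:**
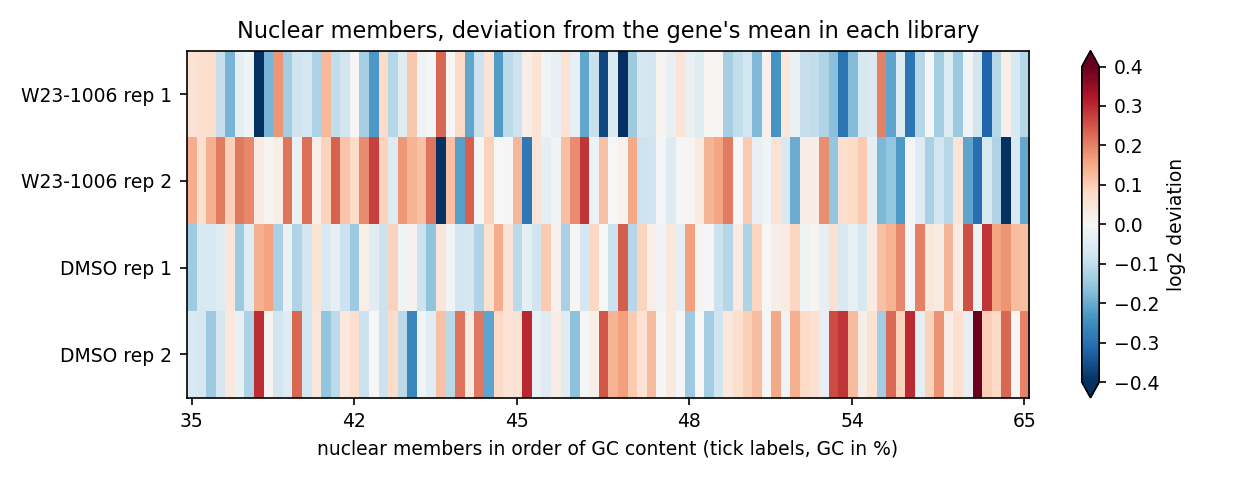
Log2 deviation of each library from the gene's mean for the 88 nuclear members with a mean value of at least 50, in order of GC content from left to right; rows are the 2 W23-1006 libraries above the 2 DMSO libraries, and colours are capped at 0.4. High-GC genes at the right are mostly blue with W23-1006 and red with DMSO, and low-GC genes at the left are red mainly in W23-1006 replicate 2.

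Near copies and overlapping genes limit some values. The table held rows of pseudogenes for 37 members, and 35 members overlap another gene on the same strand. The strand setting of the counting is not given in the sources used here, and 47 members overlap a gene on the opposite strand. Copies of the mitochondrial genome on chromosome 1 had sizeable values: MTND2P28 had 4342 and 4327 with W23-1006, against 3989 and 3438 with DMSO, and MTATP6P1 had 3152 and 3380 with W23-1006, against 3185 and 3626 with DMSO. The log2 fold change of MTND2P28 was 0.23, on the side of MT-ND2, and that of MTATP6P1 was -0.06, while MT-ATP6 had 0.11. NDUFV2, the partner of NDUFV1 in the NADH module, had 21.9 and 19.3 with W23-1006, against 37.9 and 18.6 with DMSO, and its processed pseudogene NDUFV2P1 had 17.9 and 25.1 with W23-1006, against 9.97 and 25.8 with DMSO. The gene was above the pseudogene in both replicates 1 and below it in both replicates 2. Of the 7 nuclear members with a mean below 100, 4 overlap another gene on the same strand, and how reads of such genes were shared out was not tested.

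Genes that serve the same pathway but fall outside the naming rule gave 3 calls among 117 tested, or 2.56% beside 2.15% of all genes. An unadjusted p under 0.05 was found in 31 of them (26.5%, beside 16.7% of all genes), and limma-voom called 8 (6.84%, beside 5.3% of all genes). CYCS, the cytochrome c that carries electrons between complexes III and IV, rose to 3486 and 4071 with W23-1006, against 3061 and 3131 with DMSO (log2 fold change 0.28, adjusted p = 0.049, limma). It was the 1 called of 20 electron carriers and further subunits, 10 of them positive, and limma-voom called CYC1, the cytochrome c1 of complex III, as well, lower. FASTKD2, which binds mitochondrial RNA and is needed for the mitochondrial ribosome, rose to 1372 and 1387 with W23-1006, against 1172 and 1066 with DMSO (log2 fold change 0.30, adjusted p = 0.049, limma). It was the 1 called of 26 genes of mitochondrial transcription, RNA processing and decay, of which 17 were positive, and limma-voom called 5 of these, with TFAM, LRPPRC and TRMT10C higher and FASTK lower. POLG, the polymerase that copies mitochondrial DNA, fell to 1362 and 1294 with W23-1006, against 1618 and 1677 with DMSO (log2 fold change -0.31, adjusted p = 0.036, limma). It was the 1 called of 10 genes of mitochondrial DNA maintenance, of which 8 were positive, and the 1 called by limma-voom. With single libraries left out, log2 fold changes were 0.17 to 0.39 for CYCS, 0.23 to 0.37 for FASTKD2 and -0.35 to -0.27 for POLG. Those fits called no gene at all, so the lost calls are not particular to these 3. Each also lost its call after the GC content correction, at 0.18, 0.15 and -0.14, where 0.0934% of all genes were called. GC contents were 41.6% for CYCS, 36.5% for FASTKD2 and 58.5% for POLG.

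In the lists of assembly factors none of 49 genes passed in limma or in limma-voom. Of the 49, 8 had an unadjusted p under 0.05, beside 16.7% of all genes. Complex I assembly factors outside the rule had 6 of 11 positive, complex II 2 of 4, complex III 3 of 6, complex IV 16 of 24 and complex V 0 of 4. Those with the smallest p in each list were TMEM126B for complex I (0.19), SDHAF3 for complex II (0.25), LYRM7 for complex III (0.25), HIGD1A for complex IV (0.24, adjusted p = 0.088, limma) and ATPAF2 for complex V (-0.61, adjusted p = 0.139), all as log2 fold changes. Of 12 nuclear regulators of respiratory genes 7 were positive and none passed in limma or limma-voom. An unadjusted p under 0.05 was found in 3 of them, beside 16.7% of all genes. GABPA, the DNA-binding part of the factor NRF2 (GABP), had the smallest p (log2 fold change 0.30, adjusted p = 0.069, limma).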

How the data were processed

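One table of 26336 genes was read, covering 2 W23-1006 and 2 DMSO libraries at 24 h. CASAVA, fastp, HISAT2 2.0.5, featureCounts 1.5.0-p3, DESeq2 1.20.0 and GRCh38 are listed, without roles, in the submitters' processing notes. The per-library columns hold a deposited signal, in effect scaled read counts: 100% of entries were whole multiples, to 0.001, of the smallest nonzero entry. Fold changes as log2 and p-values of the authors' own test are further columns, per the file headers. Columns named treatment and control were taken as W23-1006 and DMSO.

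Scaled values do not suit a count model. limma 3.58.1 (R 4.3.3), with a mean-variance trend, was therefore run on log2(value + 1) for 22486 genes averaging at least 1, two-sided, with an adjusted p of 0.05 as the threshold. This scale understates changes of low genes. An exact permutation test of 2 libraries against 2 cannot fall below 0.333, so single genes lean on the variance shared across genes. GC content came from the longest GENCODE release 29 transcript; its correction removed a loess curve (span 0.3) per library, fitted to 12582 genes above a mean log2 value of 5. RPKM used the table's gene lengths. The fit was tested on simulated data.

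The members, lists and tests were chosen with earlier results of these data known. By rule the text names the mitochondrial genes, the SDH genes, isoform pairs, each complex's genes of highest level and of highest and lowest fold change, members past the threshold, and each list's called genes and smallest p. Others, such as NDUFS1, NDUFS8, NDUFB7, NDUFV1, NDUFV2, COX7A2L, ATP5IF1, UQCR11, CYC1 and TRMT10C, were picked once values were known. Other pseudocounts, filters, scalings, variance models, corrections, a replicate block and single left-out libraries were tried; a library left alone in its group was treated as varying like the opposite group.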

Additional observations from a re-analysis of the deposited data

How the results depend on the processing

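The planned edgeR test was not run, because whole reads are not claimed for the scaled values; trimmed-mean scaling stands for the planned TMM factors. The single call, MT-ND4L, kept its direction under all 20 alternatives but not its side of the threshold. No member was called higher with a pseudocount of 0.1, no filter on low values, trimmed-mean scaling, limma without the trend, the GC content correction or any library left out (0 to 0). There were 2 with limma-voom (MT-ND4L and MT-ND2) and 3 with a filter of 5 CPM in 2 libraries (with NDUFS1 and SDHD). There were 4 with the gene length correction (with MT-ND2, MT-ND3 and SDHD). Over all genes, 411 of 22486, 637 of 11097 and 324 of 22486 were called higher in these settings, in the same order. Called lower were 1 with equal totals (NDUFS8), 2 with limma-voom (with ATP5F1D), 3 among protein-coding genes only (with NDUFB7) and 4 with the filter (with UQCR10). Over all genes, 583 of 22486, 781 of 22486, 684 of 14608 and 838 of 11097 were called lower, in the same order. The cause of these differences was not tested.

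Over all genes the calls higher and lower were 0 and 0 with a pseudocount of 0.1, no filter or no trend (limma; 3515, 3568 and 1866 genes at an unadjusted p under 0.05), and 0 to 0 without any single library (1904 to 3112). They were 637 and 838 of 11097 genes with the filter, and 449 and 684 of 14608 among protein-coding genes. Of 22486 genes they were 281 and 489 with a pseudocount of 5, 237 and 583 with equal totals, and 249 and 550 with equal totals over nuclear genes. They were 411 and 781 with limma-voom, 14 and 7 with the GC content correction, and 324 and 398 with the length correction. With the GC content and then the length correction (added after seeing the data) they were 20 and 13.

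The labels do not tell whether same-numbered libraries are paired. Deviations of same-numbered libraries correlated at 0.0436 over 12585 genes, a value from 2 libraries per group that cannot exclude pairing. With the number as a replicate block, 5 members were called higher and 6 lower, and 730 and 1001 of 22486 genes in all. With the block and the GC content correction, 1 member (MT-ND4L) and 106 genes were called higher and 4 members and 94 genes lower. MT-ND4L had a log2 fold change of 0.23 there, with a standard error of 0.035 (adjusted p = 1.7e-07, limma). Before correction, its replicate 2 differed from replicate 1 by log2 0.24 with W23-1006 and by -0.23 with DMSO. That spread exceeds the standard error, so the small p leans on the variance shared across genes.

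Of the medians, complex I nuclear was -0.034 with the GC content correction, with or without the block, and -0.026 with length added; complex III nuclear was -0.026, -0.026 and -0.027; complex V nuclear was -0.088, -0.088 and -0.088; and complex I mitochondrial was 0.061 and 0.061. Complex IV nuclear was -0.012 with both corrections and -0.023 with length alone. Complex V nuclear was -0.032 with length, -0.087 with equal totals, -0.083 over nuclear genes and -0.087 with limma-voom. Leaving out single libraries gave -0.107 to -0.012 for nuclear members, 0.046 to 0.204 for complex II, -0.134 to 0.0013 for complex IV and -0.079 to -0.027 for complex V.

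Some members changed sign, none of them called; most were near 0, but COX7A1 and NDUFA4L2, with few reads, were not. With the GC content correction COX6B1 was at 0.032, COX7B2 at -0.040, COX8A at 0.0089, MT-CO2 at -0.0059, NDUFAF8 at 0.032 and UQCRB at -0.026, with or without the block. With length added COX6B1 was at 0.058, COX7B2 at -0.012, COX8A at 0.041, NDUFAF8 at 0.055, NDUFS5 at 0.026 and UQCRB at -0.027. With length alone MT-ND1 was at 0.059 and NDUFS5 at 0.057, and with trimmed-mean scaling NDUFS5 was at 0.00061. ATP5F1B was at -0.012 with equal totals, -0.0086 over nuclear genes and -0.012 with limma-voom. With single libraries left out, log2 fold changes ranged for ATP5F1B from -0.016 to 0.019, COX6A1 from -0.28 to 0.064, COX7A1 from -1.40 to 0.056, COX7B from -0.031 to 0.30, COX7B2 from -0.10 to 0.22, MT-ATP8 from -0.26 to 0.12, MT-CO1 from -0.0029 to 0.18, MT-CO2 from -0.049 to 0.10. They ranged for MT-CYB from -0.012 to 0.14, MT-ND1 from -0.092 to 0.070, MT-ND5 from -0.038 to 0.19, NDUFA4L2 from -2.02 to 0.53, NDUFS5 from -0.054 to 0.034, UQCRB from -0.035 to 0.27, UQCRH from -0.098 to 0.24, UQCRHL from -0.17 to 0.33.

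Depth limits COX7A1 and NDUFA4L2, which had at most 7.22 in any library, and their fold changes cannot be told from 0 at this depth. CYCS, FASTKD2 and POLG also lost their calls with a pseudocount of 0.1, no filter or no trend, settings in which no gene was called. CYCS lost its call with trimmed-mean scaling too (adjusted p = 0.0503, limma).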

Other observations

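The mitochondrial genes that encode no protein were also in the table. The large ribosomal RNA MT-RNR2 had 29518 and 28769 with W23-1006, against 27955 and 25197 with DMSO, and the small one, MT-RNR1, had 5120 and 5107 with W23-1006, against 4728 and 4078 with DMSO. Both were higher in both W23-1006 libraries than in either DMSO library, but neither passed (log2 fold changes 0.13 and 0.22, limma adjusted p = 0.192 and 0.093). Of the 22 mitochondrial tRNA genes 12 had a positive and 10 a negative fold change, with a median log2 fold change of 0.065 and none called (limma). MT-TN, the tRNA gene with the highest values, had 773 and 883 with W23-1006, against 638 and 665 with DMSO, without overlap (log2 fold change 0.34, adjusted p = 0.060, limma). MT-TC, the next highest, had 565 and 564 with W23-1006, against 593 and 568 with DMSO. The tRNA genes are 59 to 75 bases long, shorter than the stated fragments.

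Among the genes of mitochondrial transcription and RNA handling, TFAM and LRPPRC, both chosen after their values were seen, had log2 fold changes of 0.21 and 0.16 (limma adjusted p = 0.101 and 0.119), and their GC contents were 38.4% and 42.4%. POLRMT, the mitochondrial RNA polymerase, also chosen after its values were seen and with a GC content of 66.3%, had -0.21 (adjusted p = 0.223, limma). After the GC content correction the 3 genes had 0.070, 0.067 and 0.13. Not every gene of the list went along with GC content. SLIRP, picked likewise and with a GC content of 39.4%, had -0.11 (adjusted p = 0.667, limma), or -0.24 after the correction.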
